A study of Mus musculus with 12 samples.

Results

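Lungs of mice aged 30 months were set against lungs of mice aged 12 months, using 6 of the 12 libraries of a bulk RNA-seq series on ageing mouse lung. All animals were C57BL/6NCr, a C57BL/6 substrain, and the labels name no treatment, transgene or sex. The ages are written 12M and 30M, with 3 libraries each (12M_206, 12M_207 and 12M_208; 30M_216, 30M_218 and 30M_220), and the other libraries were 3 at 6M and 3 at 20M. Values of an age are given in the order of its libraries, and n = 3 for each age throughout. The members were the columns named for these ages in the deposited table of read counts per gene. Total RNA of lung was extracted, poly-A RNA was selected, and paired-end reads were sequenced. Whether the libraries of an age came from separate animals is not stated in the labels. The p-values here therefore reflect the spread among libraries, which may be technical in part. The 6 libraries held 12152066 to 14746298 counts. Lung markers were abundant in all of them: Sftpc, a surfactant protein of alveolar type 2 cells, stood between 10377 and 23834 CPM (counts scaled to a library of 1e+06), and Ager, of alveolar type 1 cells, between 1645 and 3125 CPM. The Y-linked Ddx3y stood between 66.1 and 111 CPM and Xist between 1.27 and 2.25 CPM.

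The lung holds several kinds of macrophage. Alveolar macrophages live in the air spaces and clear surfactant, interstitial macrophages live in the tissue and make complement C1q, and monocytes reach the lung from the blood. Platelets and their parent cells, the megakaryocytes, are also found in lung vessels. Interferons switch on antiviral genes and the genes that load peptides onto MHC molecules, through STAT and IRF transcription factors that bind short promoter motifs. The macrophage and monocyte programme depends on the transcription factor PU.1, encoded by Spi1.

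Some genes of macrophages, monocytes, platelets and the interferon response were higher at 30M than at 12M, and few genes were lower. The genes that passed the test as higher included 5 of 14 on the interstitial macrophage list, 3 of 12 on the monocyte list, 4 of 13 on the platelet list and 2 of 30 interferon-stimulated genes, so that most members of each list did not pass. Of 18407 genes tested with edgeR's quasi-likelihood test, 131 (0.712%) had a Benjamini-Hochberg adjusted p under 0.05 and are called here. Of these, 121 (0.657%) were higher at 30M and 10 (0.0543%) were lower. In 102 of the 121 and in 6 of the 10 the change was over 2-fold, and the median log2 fold change was 1.52 among the higher genes and -1.02 among the lower. Over all tested genes the median was 0.00157. All 131 called genes had no overlap between the 3 libraries of each age. Over all tested genes, 1380 (7.50%) had every 30M library above every 12M library, and 1057 (5.74%) had every 30M library below every 12M library. The plot of level against change shows that the called genes covered a wide span of levels and that most lay above 0.

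**Figure D1:**
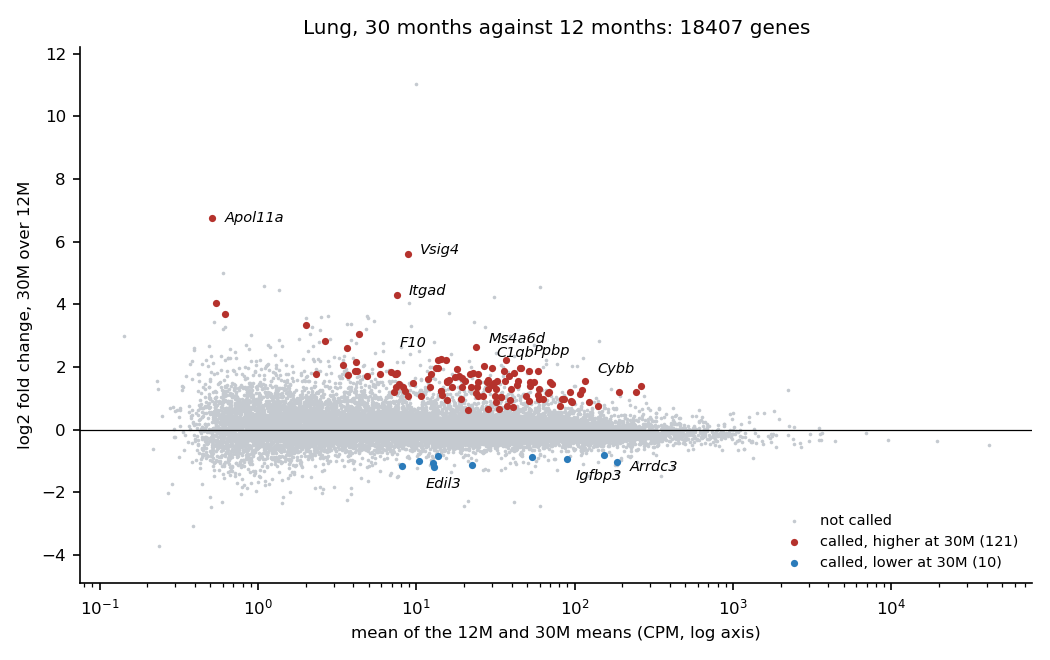
Each point is 1 of the 18407 tested genes, with the mean of the 12M and 30M levels on a log axis in CPM and the log2 fold change of 30M over 12M on the vertical axis. Red points are the 121 genes called higher, blue points the 10 called lower and grey points the rest. The uncalled gene near 11 is Clec4f, which had no count in any 12M library.

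The call count moved with single libraries. Without 12M_207 edgeR called 0 genes, with 1677 at an unadjusted p under 0.05 and a smallest adjusted p of 0.0922. Without 12M_208 it called 2, without 12M_206 it called 24, without 30M_218 it called 36 and without 30M_216 it called 44, against 101 without 30M_220. With all libraries, DESeq2 called 504 genes and limma voom with quality weights 184. In each of these settings all 131 genes kept their direction and had an unadjusted p under 0.05. A pair of the 6 libraries stood apart in base composition: the rank correlation over genes between GC content and the difference from the 6M mean was 0.221 in 12M_208 and 0.305 in 30M_220, against -0.0831 to 0.0469 in the other 4. With both of them left out edgeR called 27 genes, all higher, and with the GC trend of each library removed it called 151. The bar chart of settings gives the split by direction.

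**Figure D2:**
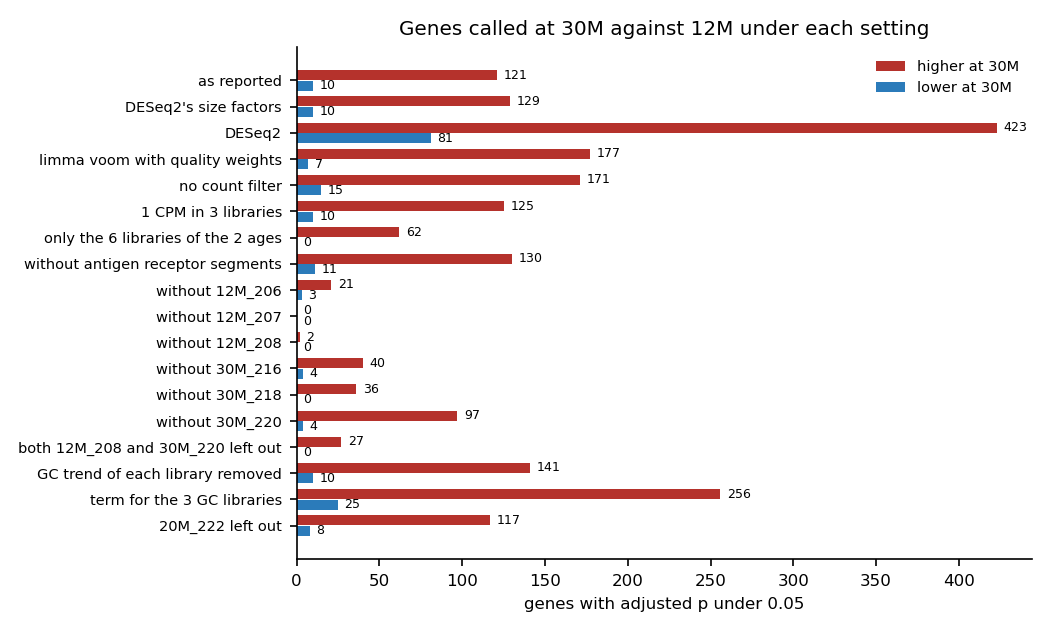
Bars give the number of genes with an adjusted p under 0.05 at 30M against 12M, red for higher and blue for lower, for the result as reported and for each other setting. The bars shrink to 0 without 12M_207 and reach 423 higher and 81 lower with DESeq2.

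Genes of macrophages were among those that rose, and in bulk tissue more cells of a type and more RNA per cell cannot be told apart. Of 14 interstitial macrophage genes 5 rose, none fell, and 9 had no overlap between the ages. C1qb, a chain of complement C1q (ENSMUSG00000036905, chromosome 4, 136880129 to 136886187), stood at 33.2, 34.8 and 40.5 CPM at 12M and 113, 120 and 80.0 CPM at 30M. Every 30M library was about double the 12M libraries or more (log2 fold change 1.53, SE 0.20, adjusted p = 0.0131). C1qa moved from 42.2, 29.0 and 52.7 to 104, 106 and 78.6 CPM (log2 fold change 1.22, adjusted p = 0.0290) and C1qc from 34.3, 28.3 and 39.9 to 91.8, 94.9 and 66.4 CPM (log2 fold change 1.30, adjusted p = 0.0208), so that all 3 chains of C1q rose. Adgre1, which encodes the macrophage surface receptor F4/80 (ENSMUSG00000004730, chromosome 17, 57358691 to 57483527), stood at 18.5, 17.4 and 18.9 CPM at 12M and 61.9, 51.2 and 49.3 CPM at 30M. Its 12M libraries lay within 2 CPM of each other and far below those at 30M (log2 fold change 1.57, SE 0.21, adjusted p = 0.0131). Cd68, a lysosomal glycoprotein of phagocytes, stood at 15.2, 15.8 and 12.3 CPM at 12M and 46.8, 32.8 and 45.8 CPM at 30M, without overlap (log2 fold change 1.53, SE 0.22, adjusted p = 0.0131). Trem2, a lipid-sensing receptor, moved from 3.61, 3.12 and 3.38 to 15.1, 14.1 and 5.56 CPM (log2 fold change 1.78, adjusted p = 0.0380), with 30M_220 the nearest to the 12M libraries. Cd68 and Trem2 were the only 2 of 13 genes called on the lipid-associated macrophage list. On that list 9 genes had a log2 fold change above 0 and 4 below, and the median was 0.12. On the alveolar macrophage list 1 of 15 genes rose: Marco, a scavenger receptor that binds inhaled particles, moved from 9.99, 9.43 and 6.25 to 32.7, 34.4 and 18.2 CPM (log2 fold change 1.73, adjusted p = 0.0481). Of the other 14, the alveolar macrophage regulator Pparg did not pass, at 13.4, 12.1 and 13.4 CPM at 12M and 18.2, 18.5 and 16.6 CPM at 30M (log2 fold change 0.45, adjusted p = 0.324). Fabp4 and Plet1, also on the alveolar list, did not pass, with log2 fold changes of 1.18 and -0.37. On the alveolar list 9 genes were above 0 and 6 below, with 4 higher and 1 lower at an unadjusted p under 0.05. On the interstitial list 12 were above 0 and 2 below. The median log2 fold change was 1.17 over the interstitial list and 0.08 over the alveolar list.

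The iron-recycling list, which holds genes known from the macrophages of liver and red pulp of spleen, had the highest median of the 57 lists at 2.06, and 3 of its 10 genes rose. Of the 10, 9 had a log2 fold change above 0 and 1 below, and 6 had no overlap. Vsig4, a complement receptor of tissue-resident macrophages, stood at 0.676, 0.253 and 0.0845 CPM at 12M and 39.1, 10.3 and 2.59 CPM at 30M. All 30M libraries were above all 12M libraries, but they spread widely, and 30M_216 was far the highest (log2 fold change 5.60, SE 1, adjusted p = 0.0326). Itgad, the integrin alpha D chain of red pulp macrophages, stood at 1.28, 0.337 and 0.507 CPM at 12M and 5.81, 22.4 and 14.6 CPM at 30M, with 30M_218 the highest (log2 fold change 4.29, SE 0.65, adjusted p = 0.0168). Spic, the transcription factor of iron-recycling macrophages, moved from 1.58, 0.505 and 0.929 to 6.13, 7.71 and 4.98 CPM (log2 fold change 2.62, adjusted p = 0.0295). Clec4f, a lectin of Kupffer cells, had no count in the 3 libraries at 12M and 756 counts over those at 30M, at least 232-fold higher against a floor of 3 counts over the group. It was not called (adjusted p = 0.306), and 54.5 CPM in 30M_216 stood beside 1.64 in 30M_218 and 3.88 in 30M_220. With this gene at its bound the list's median was the same 2.06. Cd5l, a protein secreted by such macrophages, did not pass either, at 6.76, 2.02 and 0.422 CPM at 12M and 84.6, 82.8 and 9.57 CPM at 30M (log2 fold change 4.24, adjusted p = 0.120). Markers of liver tissue were low: Alb, the albumin gene, stood at 3.98, 2.61 and 0.929 CPM at 12M and 0.806, 2.46 and 0.453 CPM at 30M, and the 3 other liver genes Apoa1, Ttr and Saa1 were each under 1 CPM in all 6 libraries. On the hepatocyte list of 10 genes 5 were measured and none was called. Of the 5, 2 were above 0, 1 of them without overlap, and 3 below, with a median of -0.04. The whole list summed to 14.6, 11.5 and 18.8 CPM at 12M and 15.8, 10.3 and 15.9 CPM at 30M. Clec4f, Cd5l, Slc40a1, Timd4, C6, Apoa1, Ttr and Saa1 were picked after the values were seen. Without 30M_216, 4 of the 10 called macrophage genes of these paragraphs were still called by edgeR (Adgre1, Cd68, C1qb and Itgad), and without 30M_220 all 10 were. Without 12M_206 the same 4 were called, without 30M_218 also those 4, and without 12M_207 or without 12M_208 none was, with adjusted p from 0.0588 to 0.191 and unadjusted p of at most 0.00258.

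**Figure D3:**
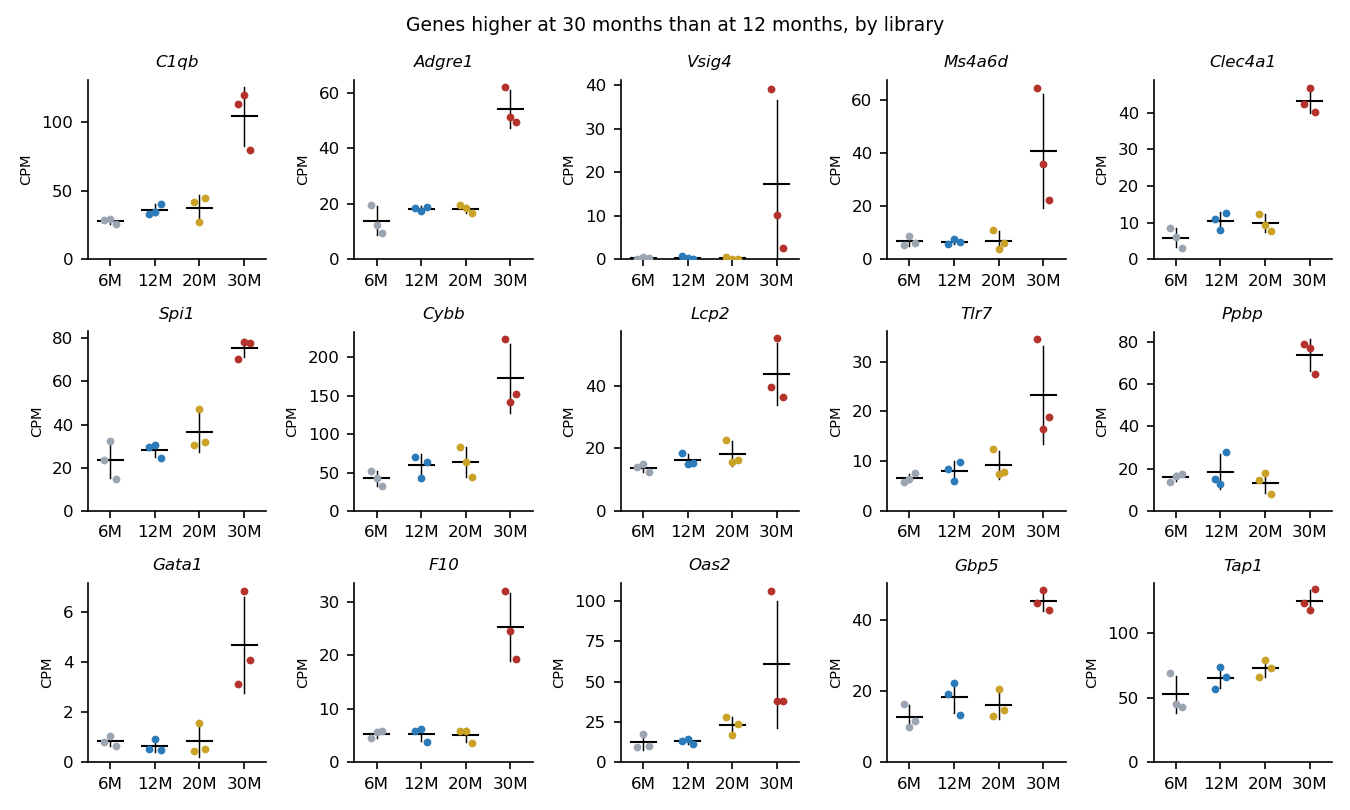
Each panel gives 1 gene, with the 3 libraries of each age as dots in CPM, the mean as a bar and the SD as a line. In all 15 panels the 30M dots lie above the 12M dots. Vsig4, Ms4a6d, Oas2 and Tlr7 show 1 high library, 30M_216, which is also the highest for Cybb among others.

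Monocyte genes rose in 3 of 12 cases and 9 had no overlap, with a median log2 fold change of 1.45. Cd300e, an activating receptor of monocytes, stood at 8.56, 6.23 and 7.43 CPM at 12M and 18.9, 31.1 and 36.1 CPM at 30M, with each 30M library more than double each 12M library (log2 fold change 1.95, SE 0.31, adjusted p = 0.0199). F13a1, the A chain of coagulation factor XIII, which monocytes and platelets carry, stood at 29.7, 18 and 18.6 CPM at 12M and 128, 61.9 and 51.1 CPM at 30M. Its highest value was again in 30M_216 (log2 fold change 1.86, SE 0.38, adjusted p = 0.0499). Itgal, the alpha chain of the adhesion integrin LFA-1, moved from 57.5, 56.0 and 54.1 to 110, 106 and 174 CPM (log2 fold change 1.22, adjusted p = 0.0365). On the same list Spn and Treml4 did not pass, with adjusted p of 0.0607 and 0.0830, though their libraries did not overlap. Vcan, a proteoglycan that monocytes make among other cells, was among the 15 largest rises (log2 fold change 2.21, adjusted p = 0.0272), as was Lrrc25, an adaptor of myeloid cells (log2 fold change 2.25, adjusted p = 0.0131).

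Cell-surface receptors that pair immune cells with activating or inhibitory signals made up 12 of the 121 genes that rose. This family and those below of Fc receptors, MS4A proteins, signalling, integrins, oxidase subunits, pan-leukocyte genes, Toll-like receptors, inflammasomes, lysosome, blood transcription factors, coagulation and vascular tone were grouped after the values were seen, so their counts describe the result and support nothing further. They were 12 of 33 paired receptors measured, of which 28 had no overlap. Clec4a1, a C-type lectin receptor of myeloid cells (ENSMUSG00000049037, chromosome 6, 122921848 to 122934619), stood at 10.9, 7.92 and 12.7 CPM at 12M and 42.3, 46.7 and 40.2 CPM at 30M. Its 30M libraries lay close together at more than 3 times the highest 12M library (log2 fold change 2.03, SE 0.29, adjusted p = 0.0135). Clec4a3 moved from 13.5, 10.2 and 9.46 to 39.8, 41.8 and 32.3 CPM (log2 fold change 1.78, adjusted p = 0.0131), and Cd300a, an inhibitory receptor, from 14.4, 15.4 and 13 to 54.9, 40.0 and 33.1 CPM (log2 fold change 1.58, adjusted p = 0.0280). The inhibitory receptors Pirb, Lair1, Pilra and Sirpa rose too, as did Pilrb1, the activating partner of Pilra. Fcer1g, the shared signalling chain of Fc receptors, rose from 38.9, 44.1 and 31.7 to 94.5, 144 and 77.3 CPM (log2 fold change 1.46, adjusted p = 0.0249) together with the inhibitory IgG receptor Fcgr2b (log2 fold change 1.04, adjusted p = 0.0303). The activating IgG receptor Fcgr4 did not pass, at 14, 13.5 and 13.3 CPM at 12M and 48.9, 107 and 51.6 CPM at 30M (adjusted p = 0.0568). Of 10 measured genes of the MS4A membrane protein family 4 rose. Ms4a6d stood at 5.78, 7.50 and 6.42 CPM at 12M and 64.4, 35.7 and 22.4 CPM at 30M, highest in 30M_216 and lowest of the 30M libraries in 30M_220 (log2 fold change 2.64, SE 0.42, adjusted p = 0.0230). Ms4a6b, Ms4a4a and Ms4a7 rose with log2 fold changes of 1.89, 1.80 and 1.46. Genes of the paired receptor and MS4A families have close copies, between which the counting may have divided reads. Of the 14 called genes named with values in this and the previous paragraph, edgeR still called 2 without 12M_206, 5 without 30M_216, 5 without 30M_218, 11 without 30M_220 and none without 12M_207 or 12M_208, with adjusted p from 0.0588 to 0.212.

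Signalling and actin genes of blood cells gave 15 rises among 24 measured, with 22 showing no overlap and a median of 1.08. Lcp2, the adaptor SLP-76 that carries signals from immune receptors (ENSMUSG00000002699, chromosome 11, 34046920 to 34092295), stood at 18.5, 15.1 and 15.3 CPM at 12M and 39.5, 55.2 and 36.5 CPM at 30M, without overlap (log2 fold change 1.42, SE 0.20, adjusted p = 0.0131). Fyb, its binding partner ADAP, stood at 17.8, 16.0 and 15 CPM at 12M and 38.7, 49.1 and 55.7 CPM at 30M (log2 fold change 1.56, SE 0.22, adjusted p = 0.0131). The 12M libraries of both genes lay within 4 CPM of each other. Fermt3, the integrin activator kindlin-3 of blood cells, moved from 24.8, 22.7 and 22.1 to 49.8, 55.0 and 84.1 CPM (log2 fold change 1.44, adjusted p = 0.0168) and Bin2, a membrane-bending protein of leukocytes, from 19.4, 15.3 and 14 to 36.9, 39.7 and 61.3 CPM (log2 fold change 1.5, adjusted p = 0.0168). Fgr, Plek, Ptpn6, Hcls1, Nckap1l and Myo1f, which act in kinase signalling or on the actin skeleton, were also among the 15. Itgb2, the beta chain shared by the leukocyte integrins, rose from 66.2, 67.5 and 61.9 to 143, 134 and 196 CPM (log2 fold change 1.27, adjusted p = 0.0168). Cybb, the catalytic subunit of the phagocyte NADPH oxidase, rose from 70.8, 43.5 and 63.8 to 224, 142 and 152 CPM (log2 fold change 1.54, adjusted p = 0.0295), while 5 of its 6 partners on that list were not called but had no overlap. Spi1, which encodes PU.1 (ENSMUSG00000002111, chromosome 2, 91082390 to 91115756), stood at 29.8, 30.7 and 24.5 CPM at 12M and 70.4, 78.2 and 77.8 CPM at 30M. The 30M libraries were all more than 2 times as high as the highest at 12M (log2 fold change 1.41, SE 0.24, adjusted p = 0.0253). Of the 7 called genes given with values here, edgeR still called 3 without 12M_206, 5 without 30M_216, 5 without 30M_218, all 7 without 30M_220, and none without 12M_207 or 12M_208, with adjusted p from 0.0588 to 0.130.

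None of 12 pan-leukocyte genes was called by edgeR, though 11 were higher at an unadjusted p under 0.05 and DESeq2 called 8 of them higher and limma voom none. Ptprc, the leukocyte common antigen CD45, stood at 163, 130 and 78.2 CPM at 12M and 242, 277 and 262 CPM at 30M. The ages did not overlap, and 12M_208 was the lowest of all (log2 fold change 1.07, SE 0.27, adjusted p = 0.109). Coro1a and Laptm5 likewise had no overlap (adjusted p = 0.0813 and 0.0708). The median log2 fold change of these genes was 0.90. They moved with the macrophage, receptor and signalling genes above, and their part in those results was not tested.

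Genes of innate sensing and of the lysosome rose in part. Among 19 Toll-like receptors and adaptors 3 rose. Tlr7, the endosomal sensor of single-stranded RNA, stood at 8.34, 6.06 and 9.80 CPM at 12M and 34.6, 16.4 and 18.8 CPM at 30M, highest in 30M_216 (log2 fold change 1.53, SE 0.31, adjusted p = 0.0415). Tlr8, its neighbour in sequence and on the X chromosome, moved from 2.1, 3.12 and 2.70 to 13, 5.58 and 8.66 CPM (log2 fold change 1.78, adjusted p = 0.0295), and the adaptor Ticam2 from 2.18, 2.19 and 2.53 to 8.87, 7.38 and 6.27 CPM (log2 fold change 1.70, adjusted p = 0.0365). Tlr3, Tlr4 and Tlr2, which sense double-stranded RNA, lipopolysaccharide and lipoproteins, did not pass, with log2 fold changes of 0.01, 0.28 and 0.73. Of 13 inflammasome genes 3 rose: Mefv, which encodes pyrin, moved from 2.1, 3.03 and 1.60 to 12.1, 8.04 and 8.60 CPM (log2 fold change 2.09, adjusted p = 0.0365), Casp1, the protease that activates interleukin-1 beta, from 15, 10.2 and 7.26 to 28.7, 33.9 and 21.3 CPM (log2 fold change 1.36, adjusted p = 0.0479), and Naip2, a sensor of bacterial secretion proteins, from 9.91, 7.50 and 8.19 to 25.5, 14.5 and 20.6 CPM (log2 fold change 1.24, adjusted p = 0.0295). Il1b itself did not pass and overlapped between the ages, at 16.0, 34.9 and 8.61 CPM at 12M and 43.0, 79.1 and 32.4 CPM at 30M. Among 21 lysosomal genes 4 rose. Pld4, an endolysosomal nuclease (ENSMUSG00000052160, chromosome 12, 112760655 to 112768990), stood at 31.0, 20.0 and 24.6 CPM at 12M and 82.7, 94.5 and 100 CPM at 30M, without overlap (log2 fold change 1.88, SE 0.24, adjusted p = 0.0131). Ctss, the cathepsin that trims the invariant chain of MHC class II, stood at 169, 142 and 130 CPM at 12M and 433, 334 and 246 CPM at 30M (log2 fold change 1.20, SE 0.23, adjusted p = 0.0372). Aoah, which inactivates lipopolysaccharide, and Ctsw, a cathepsin of cytotoxic lymphocytes, rose with log2 fold changes of 2.08 and 1.19. The widely expressed cathepsins Ctsb, Ctsd and Ctsl did not pass (0.43, 0.35 and -0.10 on the log2 scale). Of 11 called genes, the 10 of this paragraph and the lysosomal reductase Ifi30, edgeR still called 1 without 12M_206, 1 without 30M_216, 3 without 30M_218, 8 without 30M_220 and none without 12M_207 or 12M_208, with adjusted p from 0.0588 to 0.196.

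Platelet genes rose in 4 of 13 cases, all 13 had a log2 fold change above 0, and 11 had no overlap. Ppbp, a platelet chemokine (ENSMUSG00000029372, chromosome 5, 90768518 to 90770063), stood at 15.1, 12.8 and 28 CPM at 12M and 78.8, 77.2 and 65.0 CPM at 30M. The 30M libraries lay close together, and 12M_208 was the highest at 12M (log2 fold change 1.98, SE 0.30, adjusted p = 0.0168). Pf4, platelet factor 4, moved from 13.5, 10.9 and 15.9 to 41.9, 36.7 and 26.6 CPM (log2 fold change 1.38, adjusted p = 0.0295). Itga2b, the integrin alpha IIb chain that binds fibrinogen, stood at 8.19, 9.94 and 18.7 CPM at 12M and 31.3, 48.9 and 63.9 CPM at 30M (log2 fold change 1.97, SE 0.32, adjusted p = 0.0249). Gp1ba, part of the receptor for von Willebrand factor, moved from 1.35, 1.18 and 2.03 to 4.43, 5.99 and 9.96 CPM (log2 fold change 2.16, adjusted p = 0.0372). Of 20 transcription factors of blood lineages 4 rose, with a median of 0.55: Spi1 and Spic, above, and Gata1 and Nfe2, which act in megakaryocytes and red cells. Gata1 stood at 0.526, 0.926 and 0.507 CPM at 12M and 3.14, 6.81 and 4.07 CPM at 30M, and each 30M library was more than 3 times the highest at 12M (log2 fold change 2.82, SE 0.52, adjusted p = 0.0295). Nfe2, which drives platelet release, moved from 7.81, 8 and 7.94 to 18.8, 31.7 and 19.4 CPM (log2 fold change 1.56, adjusted p = 0.0249). On the erythroid list none of 9 genes was called by edgeR, with 3 higher at an unadjusted p under 0.05, 2 called higher by DESeq2 and none by limma voom. Alas2, the first enzyme of haem synthesis in red cells, stood at 10.8, 19.9 and 50.3 CPM at 12M and 30.1, 22.7 and 47.8 CPM at 30M, with overlap. Among 17 genes that set vascular tone 3 rose and 1, Pde5a, fell: Slc6a4, the serotonin transporter, rose with a log2 fold change of 1.25, Tbxas1, thromboxane synthase, of 1.08, and Ptgir, the prostacyclin receptor, of 1.38. These 3 are made by platelets or the vessel wall and by other lung cells.

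Of 20 coagulation genes 3 rose, and their median was -0.08. F10, which encodes coagulation factor X (ENSMUSG00000031444, chromosome 8, 13037308 to 13056676), stood at 5.93, 6.32 and 3.89 CPM at 12M and 32.1, 24.5 and 19.3 CPM at 30M. Its libraries did not overlap, and the lowest at 30M was about 3 times the highest at 12M (log2 fold change 2.23, SE 0.27, adjusted p = 0.0131). F2rl2, the thrombin receptor PAR3, stood at 1.35, 2.11 and 1.94 CPM at 12M and 6.21, 8.53 and 5.11 CPM at 30M (log2 fold change 1.87, SE 0.32, adjusted p = 0.0249). The third was F13a1, above. Tissue factor F3 overlapped between the ages at 63.2, 89.9 and 71.4 CPM at 12M and 73.9, 50.7 and 57.9 CPM at 30M, and F7 and F8 also overlapped. Of the 11 called genes of this and the previous paragraph other than F13a1, edgeR still called 1 without 12M_206 (F10), 2 without 12M_208 (Ppbp and Itga2b), 4 without 30M_216, 1 without 30M_218 (F10), 7 without 30M_220 and none without 12M_207, with adjusted p from 0.0922 to 0.194 in the last case. Ppbp and Itga2b were the only genes of the whole table that were called without 12M_208. That library was the highest at 12M for both genes, so that leaving it out lowered their 12M level. The platelet list's median, set against the 12M mean, was 0.69 in 12M_208, beside -0.18 in 12M_206 and -0.23 in 12M_207.

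Interferon-induced genes lay above 0 throughout, with few single genes past the threshold. All 30 interferon-stimulated genes had a log2 fold change above 0, 17 had no overlap and 2 were called, with a median of 1.13. Oas2, which senses double-stranded RNA and activates RNase L (ENSMUSG00000032690, chromosome 5, 120730333 to 120749853), stood at 13.4, 14.5 and 11.3 CPM at 12M and 106, 38.1 and 37.8 CPM at 30M. The value in 30M_216 was far above the other 30M libraries, which were themselves above all at 12M (log2 fold change 2.21, SE 0.39, adjusted p = 0.0305). Stat2, part of the factor that carries the type I interferon signal (ENSMUSG00000040033, chromosome 10, 128270559 to 128292849), stood at 41.2, 52.5 and 30.4 CPM at 12M and 124, 68.4 and 89.0 CPM at 30M, without overlap (log2 fold change 1.18, SE 0.21, adjusted p = 0.0295). Zbp1, a sensor of Z-form nucleic acid, did not pass, at 13.6, 10.9 and 15.3 CPM at 12M and 99.4, 44.5 and 22.8 CPM at 30M (log2 fold change 2.07, adjusted p = 0.111). The list's median, set against the 12M mean, was 1.84 in 30M_216, 0.82 in 30M_218 and 0.39 in 30M_220, highest in 30M_216 and lowest in 30M_220. The interferon-induced GTPases were more even over the libraries, with medians of 1.31, 1.20 and 0.87. All 15 of these had a log2 fold change above 0, 14 had no overlap and 2 were called. Gbp5, a guanylate-binding protein that acts on vacuoles with microbes (ENSMUSG00000105504, chromosome 3, 142493978 to 142522344), stood at 19.2, 22.3 and 13.4 CPM at 12M and 44.8, 48.5 and 42.8 CPM at 30M (log2 fold change 1.31, SE 0.23, adjusted p = 0.0295). Gbp8 moved from 8.34, 10.9 and 4.90 to 17.9, 26.7 and 28.4 CPM (log2 fold change 1.59, adjusted p = 0.0249).

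Of 16 genes of MHC class I presentation 3 rose and 10 had no overlap, with a median of 0.56. Tap1, which pumps peptides into the endoplasmic reticulum (ENSMUSG00000037321, chromosome 17, 34187553 to 34197225), stood at 57.0, 73.6 and 65.9 CPM at 12M and 123, 118 and 134 CPM at 30M, with both ages narrow and apart (log2 fold change 0.93, SE 0.18, adjusted p = 0.0342). The class I genes H2-Q7 and H2-T22 rose from 102, 143 and 102 to 254, 231 and 313 CPM (log2 fold change 1.20, adjusted p = 0.0372) and from 101, 105 and 107 to 217, 157 and 154 CPM (log2 fold change 0.75, adjusted p = 0.0365), and such genes have near-identical copies that make their counts uncertain. Nlrc5, the activator of class I genes, did not pass, at 24.0, 35.5 and 16.0 CPM at 12M and 57.3, 54.5 and 74.7 CPM at 30M (log2 fold change 1.30, adjusted p = 0.0607). On the class II list 2 of 12 rose, Ifi30, the lysosomal thiol reductase (log2 fold change 0.76, adjusted p = 0.0295), and Ctss, above. Ciita, the class II activator, did not pass (log2 fold change 0.81, adjusted p = 0.187). One gene of 21 on the cytokine and NF-kB list rose, Nfkbie, an inhibitor of NF-kB, from 10.4, 10.2 and 11.4 to 20.4, 16.7 and 25.0 CPM (log2 fold change 0.96, adjusted p = 0.0372). Saa3, an acute phase gene, did not pass, at 3.68, 5.64 and 5.32 CPM at 12M and 16.9, 294 and 37.4 CPM at 30M (adjusted p = 0.120), and its highest value was in 30M_218. Cfp, properdin, was the 1 gene of 14 that rose on the complement list, which leaves out C1q (log2 fold change 1.73, adjusted p = 0.0473). Slfn14, of the Schlafen family, and Apol11a, of the apolipoprotein L family, were among the 15 largest rises. Slfn14 moved from 0.225, 0.0842 and 0.760 to 2.1, 3.69 and 5.24 CPM (log2 fold change 3.35, adjusted p = 0.0440). Apol11a had no count at 12M and 41 at 30M over the 3 libraries of each age, at least 12.6-fold higher against a floor of 3 counts over the group (adjusted p = 0.0305). Sntg1, a syntrophin, was counted 41 times over the 30M libraries and 2 times over those of 12M. Scaled for depth the ratio was 18.9, with an exact 95% counting interval of 4.91 to 161 (adjusted p = 0.0449), and the call was lost without any 1 of the 6 libraries. Of 10 called genes among those of this and the previous paragraph (Oas2, Stat2, Gbp8, Gbp5, Tap1, H2-T22, H2-Q7, Nfkbie, Slfn14 and Apol11a), edgeR still called 2 without 30M_216, 3 without 30M_218 and 5 without 30M_220. It called none without any 1 of the 12M libraries, with adjusted p from 0.0669 to 0.187.

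**Figure D4:**
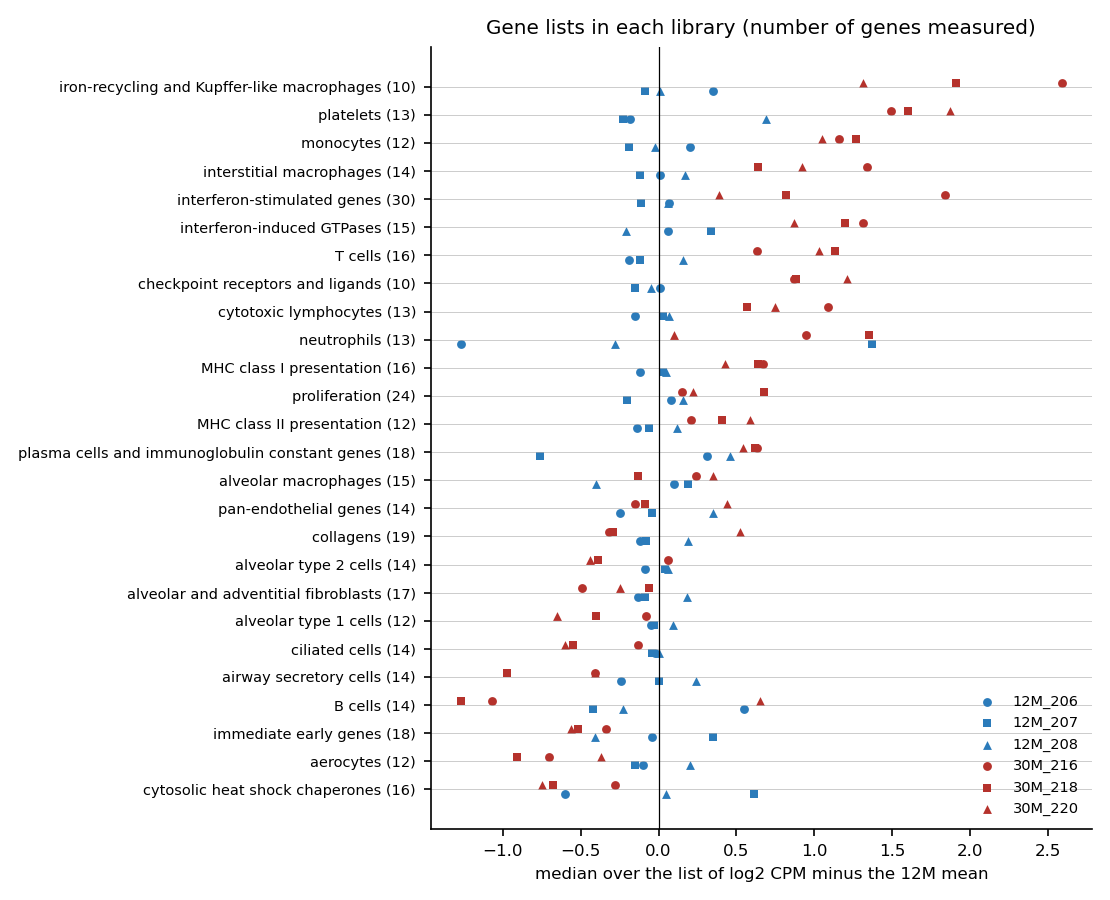
Each row is a gene list with the number of genes measured, and each mark is the median over the list of log2 CPM minus the 12M mean in 1 library, blue for 12M and red for 30M, with mark shapes for replicates. The platelet and monocyte lists lie above 1 in every 30M library, and the B cell list lies at -1.07, -1.27 and 0.65.

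Promoter sequences of the called genes were read for short motifs, in the 250 bases before the start of each gene, from a RefSeq table of GRCm38.p6. Of the called genes, 92 of the 121 higher and 6 of the 10 lower had a promoter there, some of them more than 1. The interferon-stimulated response element, searched as GAAANNGAA on both strands, was in 20 of 104 promoters of higher genes (19.2%) and in 7.13% of all 32851 promoters. The PU.1 site, searched as GAGGAAGT on both strands and chosen after the values were seen, was in 8 of the 104 (7.69%) and in 2.44% of all. The other motifs searched gave 8.65% against 7.02% for TTCNNNGAA, the interferon gamma activated site, 3.85% against 6.02% for CACGTG, the E-box, 8.65% against 6.69% for GAANNTTC, part of the heat shock element, and 23.1% against 33.8% for CCAAT. In the 9 promoters of lower genes the response element and the PU.1 site were each found in 1 (11.1%). A match describes letters in this window and is neither a bound site nor a cause. The windows below show the response element and the PU.1 site, whose shares were the highest relative to all promoters among the 6 motifs searched, in promoters of genes called higher, 5′ to 3′ on the gene's strand, with the matched letters, or their reverse complement, in capitals. The first 5 hold the response element.
Gbp5, chr3:142496725-142496823, strand plus: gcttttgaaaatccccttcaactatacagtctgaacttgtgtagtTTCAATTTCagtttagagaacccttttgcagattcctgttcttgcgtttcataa
Stat2, chr10:128270248-128270330, strand plus: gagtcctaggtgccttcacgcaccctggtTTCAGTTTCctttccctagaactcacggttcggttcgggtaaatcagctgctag
Tlr8, chrX:167264343-167264441, strand minus: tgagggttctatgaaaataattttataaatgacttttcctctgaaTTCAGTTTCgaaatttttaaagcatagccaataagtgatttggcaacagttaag
Ctss, chr3:95526720-95526785, strand plus: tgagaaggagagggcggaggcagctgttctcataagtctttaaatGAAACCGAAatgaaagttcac
Cybb, chrX:9469325-9469536, strand minus: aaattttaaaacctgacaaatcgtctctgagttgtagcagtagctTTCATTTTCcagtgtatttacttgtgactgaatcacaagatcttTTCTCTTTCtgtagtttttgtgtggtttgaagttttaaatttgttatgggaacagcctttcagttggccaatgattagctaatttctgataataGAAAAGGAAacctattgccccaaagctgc
The next 2 hold the PU.1 site.
Pirb, chr7:3720450-3720547, strand minus: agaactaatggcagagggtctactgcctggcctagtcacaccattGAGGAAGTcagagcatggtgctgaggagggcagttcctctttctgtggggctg
Pf4, chr5:90772380-90772434, strand plus: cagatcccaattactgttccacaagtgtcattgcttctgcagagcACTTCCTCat
The Cybb window holds 3 matches. The genes of the first 5 windows rose by 1.31, 1.18, 1.78, 1.20 and 1.54 on the log2 scale, and Pirb and Pf4 by 1.98 and 1.38. Pirb stood at 21.5, 24.1 and 9.29 CPM at 12M and 64.7, 77.0 and 74.8 CPM at 30M, with 12M_208 the lowest.

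On the lists of T cell, cytotoxic, checkpoint, B cell and plasma cell genes edgeR called none, though most T cell genes did not overlap between the ages. Of 16 T cell genes edgeR called none, with 13 higher at an unadjusted p under 0.05, 6 called higher by DESeq2 and 2 by limma voom. All 16 had a log2 fold change above 0, 13 had no overlap and the median was 1. Cd8a, the CD8 chain of cytotoxic T cells, stood at 3.76, 3.20 and 7.35 CPM at 12M and 10.7, 17.2 and 13.1 CPM at 30M without overlap (log2 fold change 1.52, SE 0.36, adjusted p = 0.0805). Cd3e, a chain of the T cell receptor complex, stood at 3.15, 4.13 and 5.49 CPM at 12M and 6.85, 8.53 and 13.6 CPM at 30M (log2 fold change 1.19, SE 0.32, adjusted p = 0.130). Of 13 cytotoxic genes none was called by edgeR, with 6 at an unadjusted p under 0.05, 3 by DESeq2 and 2 by limma voom. Gzmk, a granzyme of memory T cells, stood at 0.601, 0.674 and 1.94 CPM at 12M and 7.58, 8.69 and 5.56 CPM at 30M, each 30M library above 5 CPM and each at 12M below 2 (adjusted p = 0.277). None of the 10 checkpoint genes was called by edgeR, with 5 at an unadjusted p under 0.05, 2 by DESeq2 and 1 by limma voom. Pdcd1, which encodes PD-1, stood at 0.751, 0.590 and 2.70 CPM at 12M and 2.90, 4.92 and 3.56 CPM at 30M (adjusted p = 0.387). B cell genes differed between the 30M libraries: the list's median was -1.07, -1.27 and 0.65, and edgeR called none of 14, with 2 lower at an unadjusted p under 0.05 and none by DESeq2 or limma voom. Pax5, the B cell transcription factor, stood at 47.0, 22.3 and 25.3 CPM at 12M and 7.42, 8.28 and 33.0 CPM at 30M, with overlap. Among 18 plasma cell and immunoglobulin constant genes edgeR called none, with 5 higher at an unadjusted p under 0.05 and none by DESeq2 or limma voom. Ighg2c, a heavy chain gene, stood at 47.5, 3.71 and 53.3 CPM at 12M and 159, 153 and 438 CPM at 30M, lowest in 12M_207 (adjusted p = 0.356).

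Of 13 neutrophil genes edgeR called none, with 3 at an unadjusted p under 0.05, 2 by DESeq2 and none by limma voom. Ly6g, their surface marker, stood at 0.150, 0.168 and 0 CPM at 12M and 2.18, 5.08 and 0.582 CPM at 30M (adjusted p = 0.128), and Camp, a granule protein, at 0.376, 0.505 and 0.338 CPM at 12M and 0.564, 13.6 and 1.29 CPM at 30M, high in 30M_218 alone. Of 22 chemokine genes edgeR called none, with 11 higher at an unadjusted p under 0.05, 5 by DESeq2 and 1 by limma voom, and 8 were higher without overlap. Cxcl13, the B cell attractant, stood at 11.9, 5.56 and 8.95 CPM at 12M and 37.7, 22.6 and 46.0 CPM at 30M (adjusted p = 0.173), and Ccl4, made by activated macrophages and lymphocytes, at 1.80, 1.85 and 0.760 CPM at 12M and 6.53, 6.15 and 3.88 CPM at 30M (adjusted p = 0.0918).

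Among the 10 genes that fell, Igfbp3 alone was on any of the 57 lists, those of insulin-like growth factor and of senescence genes. Arrdc3, an arrestin-domain protein that directs receptors to degradation (ENSMUSG00000074794, chromosome 13, 80883384 to 80896042), stood at 217.96, 234.56 and 295.86 CPM at 12M and 140.15, 112.68 and 110.82 CPM at 30M. Each 30M library was below each 12M library by a wide margin (log2 fold change -1.04, SE 0.15, adjusted p = 0.0168). Igfbp3, which binds insulin-like growth factors (ENSMUSG00000020427, chromosome 11, 7206086 to 7213923), stood at 113, 110 and 130 CPM at 12M and 71.9, 53 and 59.4 CPM at 30M, without overlap (log2 fold change -0.94, SE 0.17, adjusted p = 0.0295). Pde5a, the phosphodiesterase of smooth muscle that breaks down cyclic GMP (ENSMUSG00000053965, chromosome 3, 122728947 to 122859374), stood at 185, 185 and 220 CPM at 12M and 94.7, 124 and 114 CPM at 30M (log2 fold change -0.82, SE 0.15, adjusted p = 0.0320). Edil3, a matrix protein that binds integrins, had the largest fall, from 13.7, 17.4 and 22.7 to 9.43, 5.49 and 8.60 CPM (log2 fold change -1.19, SE 0.23, adjusted p = 0.0380). Meox1, a homeobox transcription factor of mesenchyme, moved from 9.09, 10.3 and 14.4 to 4.19, 4.43 and 6.40 CPM (log2 fold change -1.16, adjusted p = 0.0496), and Gem, a small GTPase that binds calcium channels, from 29.9, 38.7 and 24.2 to 16.9, 11.7 and 14.4 CPM (log2 fold change -1.11, adjusted p = 0.0380). Tiparp, a target and repressor of the aryl hydrocarbon receptor, moved from 50.9, 87.4 and 68.2 to 40.0, 36.3 and 37.4 CPM (log2 fold change -0.86, adjusted p = 0.0401), with 12M_207 the highest. Ffar4, a receptor of long-chain fatty acids, moved from 16.8, 16.3 and 20.0 to 11.1, 9.43 and 9.05 CPM (log2 fold change -0.84, adjusted p = 0.0432), Enho, which encodes a secreted peptide, from 15.6, 16.3 and 19.8 to 8.71, 8.94 and 7.31 CPM (log2 fold change -1.05, adjusted p = 0.0295), and Vsnl1, a calcium sensor, from 13.2, 12.2 and 16.0 to 6.61, 6.81 and 7.18 CPM (log2 fold change -1.01, adjusted p = 0.0365). Of these 10, edgeR still called 2 without 12M_206, 2 without 30M_216, 2 without 30M_220 and none without 12M_207, 12M_208 or 30M_218, with adjusted p from 0.0253 to 0.175 over the 6. They also were not called with only the 6 libraries in the fit, where adjusted p ran from 0.0673 to 0.157. Rising genes lost calls in that fit too. Of the called genes followed above, edgeR still called 7 of 10 for macrophages, 9 of 14 for monocytes and receptors and all 7 for signalling. It still called 2 of 11 for sensing and lysosome, 5 of 11 for platelets and coagulation and 2 of 10 for the interferon and class I paragraphs.

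The libraries at 6M and 20M gave further values of the called genes. Of the 10 falling genes 1 was lower at 12M than at 6M, and their median log2 fold change was 0.38 for 12M over 6M and -0.61 for 20M over 12M. Arrdc3 stood at 150.46, 136.69 and 172.11 CPM at 6M, 217.96, 234.56 and 295.86 at 12M, 152.83, 140.71 and 141.77 at 20M and 140.15, 112.68 and 110.82 at 30M, so that 12M was the highest age. Igfbp3 stood at 104, 66.9 and 73.2 CPM at 6M, 113, 110 and 130 at 12M, 73.8, 71.5 and 70.7 at 20M and 71.9, 53 and 59.4 at 30M, again with 12M above the ages on both sides. The 121 rising genes had a median of 0.15 for 12M over 6M, 0.29 for 20M over 12M and 1.10 for 30M over 20M. These medians rest on ages that also chose the genes and are given as a description. At 20M against 6M, which shares no library with 30M against 12M, 115 of the 121 (95%) were above 0, beside 54.6% of all tested genes, with a median of 0.47. Of the 10 falling genes 9 (90%) were below 0 there, beside 45.4% of all tested genes, with a median of -0.16. The count of rising genes above 0 was 115, 109 and 98 of 121 in the 3 libraries at 20M against the 6M mean. Of all genes, 51.6%, 52.7% and 52.1% were above the 6M mean in these libraries. The count of falling genes below the 6M mean was 6, 9 and 7 of 10. The last of the 3 libraries, 20M_222, held genes of other tissues. Its skeletal muscle list summed to 3808 CPM, beside 65.9 in 20M_213 and 44.7 in 20M_221. Its thymus and squamous epithelium list summed to 4885 CPM, beside 1.85 and 1.81. The part of this in the values at 20M was not tested. Only 3 genes were called at 20M against 6M (0.0163%), of which C130026I21Rik and Gm16028 were also called at 30M against 12M. C130026I21Rik, which has close copies in the genome, stood at 11, 8 and 9.12 CPM at 12M and 25.1, 23.1 and 25.1 CPM at 30M (log2 fold change 1.38, adjusted p = 0.0295). At 30M against 20M, which shares the 30M libraries, 39 genes (0.212%) were called, all higher.

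**Figure D5:**
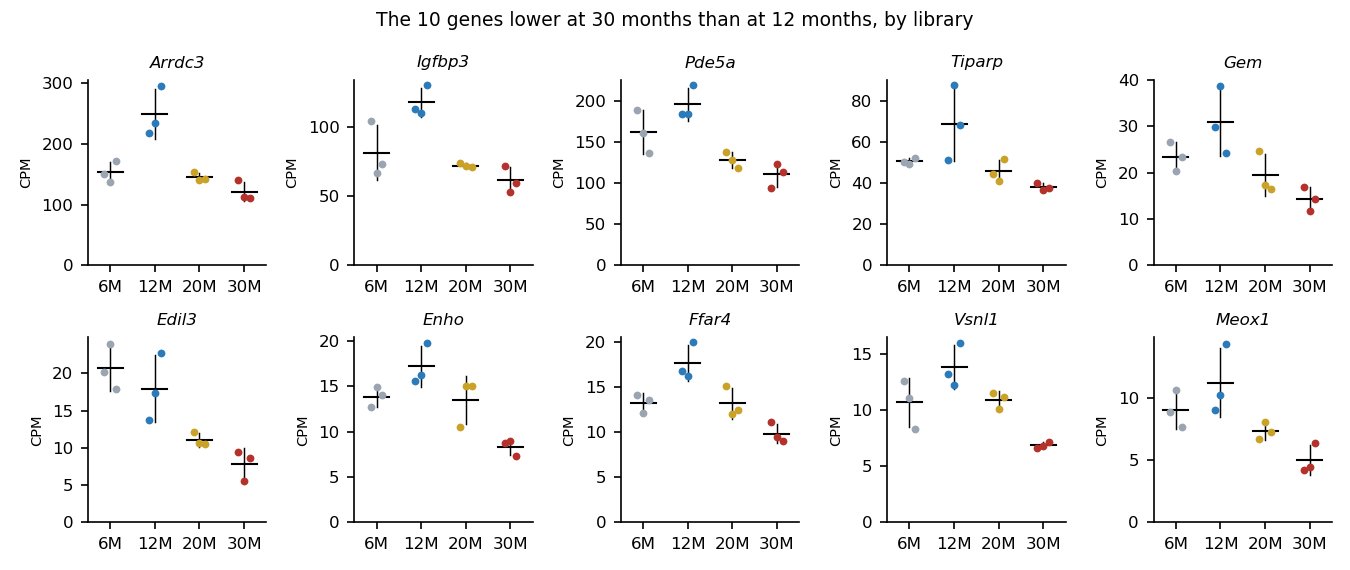
Each panel gives 1 of the 10 falling genes, with the 3 libraries of each age as dots in CPM, the mean as a bar and the SD as a line. In all 10 panels the 30M dots lie below the 12M dots, and in 9 the 12M mean is above the 6M mean.

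Genes of epithelial, endothelial and stromal cells were not called on any of their lists. Aerocytes, the large capillary cells of gas exchange, had 6 of 12 genes without overlap, all lower at 30M, and a median of -0.56. EdgeR called none of the 12, with 6 lower at an unadjusted p under 0.05, 5 called lower by DESeq2 and none by limma voom. Apln, a peptide hormone of these cells, stood at 30.0, 36.1 and 45.9 CPM at 12M and 13.5, 13.6 and 19.3 CPM at 30M (log2 fold change -1.27, SE 0.29, adjusted p = 0.0735), and Ednrb, the endothelin B receptor, at 80.1, 73.9 and 114 CPM at 12M and 44.8, 29.9 and 61.7 CPM at 30M (log2 fold change -0.97, SE 0.28, adjusted p = 0.158). Ciliated cell genes gave a median of -0.38, with 6 of 14 below without overlap, 8 lower at an unadjusted p under 0.05 and none called by edgeR, DESeq2 or limma voom. Airway secretory genes gave a median of -0.42 and no call by edgeR among 14, with 3 lower at an unadjusted p under 0.05, 2 by DESeq2 and none by limma voom. Scgb3a2, a secretoglobin of airway club cells, stood at 1595, 1619 and 2021 CPM at 12M and 1104, 1010 and 694 CPM at 30M without overlap (log2 fold change -0.90, SE 0.23, adjusted p = 0.115). Alveolar type 1 genes had a median of -0.36 and alveolar type 2 genes of -0.17, with no call by edgeR, DESeq2 or limma voom and with 5 and 1 lower at an unadjusted p under 0.05. Hopx, a cofactor of type 1 cells, stood at 1271, 1381 and 1260 CPM at 12M and 1056, 845 and 633 CPM at 30M (adjusted p = 0.322). Pan-endothelial genes had a median of 0.06 and were high in both libraries with the GC trend: Cdh5, the endothelial cadherin, stood at 417, 483 and 898 CPM at 12M and 516, 454 and 897 CPM at 30M. None of 17 fibroblast genes was called by edgeR or limma voom, with 5 lower at an unadjusted p under 0.05 and 1 called lower by DESeq2. Of 15 smooth muscle and pericyte genes none was called by edgeR or limma voom, with 3 lower at an unadjusted p under 0.05. DESeq2 called 1 of the 15 lower, and their median was -0.18. Postn, of the smooth muscle and pericyte list, stood at 260, 263 and 306 CPM at 12M and 144, 193 and 184 CPM at 30M (adjusted p = 0.0780). Dpt, of the fibroblast list, stood at 112, 155 and 141 CPM at 12M and 71.5, 98.8 and 82.3 CPM at 30M (adjusted p = 0.0804). Both encode matrix proteins of stromal cells. Of 19 collagen genes none was called by edgeR, DESeq2 or limma voom and none had an unadjusted p under 0.05, and their median was -0.02.

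On the lists of heat shock, immediate early, senescence and proliferation genes Igfbp3 was the 1 gene called. All 16 cytosolic heat shock genes had a log2 fold change below 0, 1 of them had no overlap, and 12M_207 held high values: Hspa1a, the inducible chaperone HSP70, stood at 7.29, 160 and 39.9 CPM at 12M and 21.7, 10.3 and 10.2 CPM at 30M (adjusted p = 0.412). None was called by edgeR, DESeq2 or limma voom, and 9 were lower at an unadjusted p under 0.05. Immediate early genes had 7 of 18 below without overlap, a median of -0.54, 6 lower at an unadjusted p under 0.05 and none called by the 3 tools. Fosb stood at 5.03, 22.6 and 6.00 CPM at 12M and 5, 2.62 and 4.01 CPM at 30M, highest in 12M_207. That library is the one without which no gene was called, and the part of its stress genes in the other results was not tested. Cdkn2a, the senescence gene of p16, stood at 1.88, 0.926 and 2.03 CPM at 12M and 0.806, 0.902 and 1.75 CPM at 30M and Cdkn1a, which encodes p21, at 91.9, 271 and 445 CPM at 12M and 118, 58.0 and 131 CPM at 30M, both with overlap (adjusted p = 0.806 and 0.408). Of 24 proliferation genes edgeR and limma voom called none and DESeq2 1, with 4 higher at an unadjusted p under 0.05. Mki67 stood at 19.4, 13.4 and 18.8 CPM at 12M and 27.1, 36.9 and 27.6 CPM at 30M (adjusted p = 0.181).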

How the data were processed

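Whole-number read counts per gene were deposited by the authors as raw values, with no scaling. FastQC 0.11.7, Trimmomatic 0.38, the aligner HISAT2 2.1.0 and the counter featureCounts are named, with the build GRCm38 (mm10), per the submitters' processing notes. The annotation release and the strand setting were not given in the sources used here, and overlapping, antisense and near-identical genes carry uncertain counts.

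Of 55487 listed genes, 18407 passed filterByExpr by age. All 12 libraries entered 1 fit by edgeR 4.0.16 (quasi-likelihood, robust, TMM) in R 4.3.3, with the contrast 30M minus 12M and adjustment over all tested genes. The common biological coefficient of variation was 0.236. Standard errors are the log2 fold change over the root of F. DESeq2 1.42.0, limma 3.58.1 (voom with quality weights), other filters and scalings, GC corrections and leaving out libraries were alternatives. The procedure was tested on simulated data. CPM are TMM-scaled, with 1 CPM worth 11.8 to 15.5 counts in the 6 libraries, and counting intervals and floors cover counting error only. GC content came from GENCODE M21. No 2 libraries of an age were duplicates, with chi-square per gene from 13.2 to 53.3.

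The comparison, the 57 gene lists (889 genes, 854 measured, with 29 called higher and 1 lower) and the naming rule were chosen with earlier results of these data known. The rule selects the 15 largest changes each way among called genes with at least 1 CPM and no overlap, the 5 smallest adjusted p each way, and the 4 smallest p of each list. Not every gene it selects is named above. Among those left out are Itgax, Xcr1, Cd8b1, Lag3, Ly6d and Cd79b, none of which was called. A further 13 families and the other genes named were chosen after values were seen.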

Additional observations from a re-analysis of the deposited data

How the results depend on the processing

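DESeq2 called 504 genes (423 higher, 81 lower), and 115 genes of the lists where the reported result has 30. A term for the 3 libraries with the steepest GC trend (20M_221, 20M_222 and 30M_220) gave 281 (256 and 25, lists 78), limma voom gave 51 on the lists, a fit of only the 6 libraries gave 62 (62 and 0, lists 18), and leaving out both 12M_208 and 30M_220 gave 27 (27 and 0, lists 13). Leaving out 1 library at a time gave 0 to 101 genes, 0 to 97 higher, 0 to 4 lower and 0 to 33 on the lists. DESeq2's size factors, 2 other count filters, removal of antigen receptor segments, removal of the GC trend and leaving out 20M_222, which was chosen after seeing the data, kept the count within 1.5 times of 131. Over 478 named or listed genes and their settings, 6914 of 8103 values kept direction and side of the threshold, 877 lost a call, 190 gained one, and 122 of uncalled genes changed sign. No called gene changed direction. The fits that leave out libraries hold fewer samples, and what else moved these counts was not tested. No paired analysis was possible because the ages share no replicate number. With 3 libraries an age, the smallest change that edgeR called was 0.64 on the log2 scale.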

Other observations

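Genes of basic metabolism and translation were not called between 12M and 30M. Of 42 cytosolic ribosomal protein genes none was called by edgeR, DESeq2 or limma voom and none had an unadjusted p under 0.05, with a median log2 fold change of -0.04. The 29 nuclear genes of oxidative phosphorylation gave the same counts and a median of -0.05. The 12 mitochondrially encoded genes had a median of -0.33, with 12M_208 high: mt-Cytb, a subunit of complex III, stood at 3841, 4333 and 6534 CPM at 12M and 4634, 3513 and 3401 CPM at 30M. On the sirtuin list none of 7 genes was called by the 3 tools or had an unadjusted p under 0.05, and Sirt1, a deacetylase, stood at 53.3, 51.7 and 35.7 CPM at 12M and 40.8, 40.2 and 29.6 CPM at 30M. Of 20 cholesterol synthesis genes the 3 tools called none, with 2 higher and 2 lower at an unadjusted p under 0.05.

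Among clock genes, Dbp, a clock output gene that cycles over the day, stood at 13.2, 11.1 and 25.3 CPM at 12M and 17.0, 130 and 32.5 CPM at 30M, with 30M_218 far above the others, and Clock, a core activator, at 106, 105 and 99.9 CPM at 12M and 81.4, 61.2 and 63.9 CPM at 30M without overlap (edgeR adjusted p = 0.0599). EdgeR called none of 19 clock genes, DESeq2 1 lower and limma voom 1 lower, with 3 higher and 4 lower at an unadjusted p under 0.05. Mesothelial genes were high in 30M_218 as well: Msln stood at 198, 173 and 189 CPM at 12M and 151, 549 and 80.4 CPM at 30M. Mmp13, a collagenase, stood at 0.976, 0.505 and 0.760 CPM at 12M and 21.9, 3.44 and 2.07 CPM at 30M, highest in 30M_216 (edgeR adjusted p = 0.0747), as were Vsig4, Clec4f and Oas2. Prg2, the major basic protein of eosinophils, stood at 1.05, 0.0842 and 0.845 CPM at 12M and 7.58, 4.26 and 3.23 CPM at 30M without overlap (edgeR adjusted p = 0.0736). On its list, of eosinophil, basophil and mast cell genes, edgeR called none of 11. Of these 7 were above 0 and 4 below, with a median of 0.19. Cma1 and Cpa3 on the same list had log2 fold changes of -0.85 and -0.27.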
